A study of Mus musculus with 19 samples.

Results

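Livers of KO and TG mice, the 2 extremes of Kcp by genotype code, were compared on a normal diet (ND) across 22180 genes. Kcp encodes the Kielin/chordin-like protein, which the series title names as its subject. The comparison used every array whose title ends in KO on ND (3 arrays) or TG on ND (3 arrays), 6 of the 19 arrays of the series, and all genes that the array pairs with 1 gene symbol. The remaining 13 arrays were WT on ND (3 arrays) and WT, KO and TG on a high-fat diet, HFD (3, 3 and 4 arrays), and they are used here only beside the KO and TG values on ND.

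RNA came from whole liver of mice aged 2 to 3 months after 4 weeks on their diet, with 1 mouse and 1 array per title. The genotype codes WT, KO and TG are not spelled out in the labels. Promoter and target tissue of the transgene, the deleted part of Kcp, strain, sex, litter, batch and hour of harvest are not given in the sources used here. That replicates are separate animals rests on the animal number in each title, so that a p-value measures the spread between these arrays.

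Kielin/chordin-like protein is a secreted protein with many cysteine-rich repeats, of the kind found in chordin, that bind ligands of the TGF-beta superfamily. It is known to enhance signalling by bone morphogenetic proteins (BMPs) through SMAD proteins and to dampen signalling by TGF-beta and activin. In liver, BMP signals act on hepatocytes to raise hepcidin, the hormone of iron balance, while TGF-beta acts on stellate cells to promote matrix production. Liver is also an organ of strong daily rhythm, in which a core clock of activators (Clock, Npas2, Arntl) and repressors (the Per and Cry genes, Nr1d1) drives many genes of lipid and glucose handling. Kupffer cells, the resident macrophages of the liver, line its sinusoids and clear particles and microbes from portal blood.

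Values are log2 expression, and each difference is the KO mean minus the TG mean, so that a positive difference means higher in KO. Genes are said to differ, or to pass, at an adjusted p under 0.05 in limma's moderated test over all 22180 genes. The hepatocyte markers listed for this study averaged 10.9 to 11.0 in KO arrays, 11.0 in TG arrays and 11.0 to 11.1 in WT arrays on ND. Arrays of the same group correlated with r between 0.9738 and 0.9793 within KO and TG on ND (6 pairs across all probe sets), and pairs of 1 KO and 1 TG array between 0.9671 and 0.9723 (9 pairs). Since tissue was taken whole, fewer cells of a type and less RNA per cell cannot be told apart in anything that follows.

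On ND, 931 genes differed between KO and TG, 4.2% of those tested. Of these, 379 were higher in KO (1.71%) and 552 higher in TG (2.49%). The median difference over all genes was 0.0011. Differences of more than 1 were seen for 394 genes that passed, and of more than 2 for 77, of which 45 were higher in KO and 32 higher in TG. For 923 of the 931 genes the 3 KO and 3 TG arrays did not overlap (4.16% of all genes). Without an adjusted p, 4691 genes (21.1%) had arrays that did not overlap, and 3345 had an unadjusted p under 0.05. Leaving out 1 of the 6 arrays at a time gave 568 to 783 genes, and the lowest counts came without KO replicate 2 (568) and without TG replicate 2 (615).

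Kcp itself was high in every TG array. It read 2.15, 1.64 and 2.30 in the KO arrays on ND and 5.72, 5.35 and 5.60 in the TG arrays. KO and TG lay far apart, with WT at 2.41, 2.82 and 2.42, near the KO level. KO minus TG was -3.53 on ND (SE 0.20, limma adjusted p = 5.33e-09), and the HFD arrays gave -3.65 (adjusted p = 9.39e-10). Against WT on ND, TG was higher by 3.01 (adjusted p = 4.54e-08), while KO differed by -0.52, which did not pass (adjusted p = 0.215). Kcp was dim in both KO and WT, and the position of its probes against the deletion is not given here, so the KO label is left unchecked by this gene.

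The largest difference of all belonged to an alpha-1-antitrypsin gene. Alpha-1-antitrypsin, an inhibitor of neutrophil elastase made by hepatocytes, is encoded in mice by several adjoining Serpina1 copies. Serpina1d read 2.38, 0.76 and 2.19 in KO on ND against 11.06, 11.10 and 10.98 in TG, and 11.08, 11.09 and 10.95 in WT. It was low in every KO array, and TG and WT differed by less than their spread (TG minus WT 0.0026, adjusted p = 0.999). KO and TG differed by -9.26 on ND (SE 0.29, adjusted p = 1.13e-12), and by -8.55 on HFD (adjusted p = 1.42e-12). Serpina1e, the next copy, gave 6.37, 5.79 and 6.41 in KO against 10.44, 10.72 and 10.62 in TG, a difference of -4.41 (SE 0.37, adjusted p = 1.19e-06), with WT at 10.79, 10.38 and 10.48. It too differed on HFD, by -4.45.

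The other copies did not follow on ND. Serpina1a (-0.32), Serpina1b (-0.36) and Serpina1c (-0.30) did not pass on ND, with adjusted p of 0.468, 0.261 and 0.271 and 95% intervals from -0.71 to 0.07, from -0.68 to -0.04 and from -0.58 to -0.03. On HFD Serpina1a did pass as lower in KO (-0.90, adjusted p = 0.00782), while Serpina1b (-0.31, adjusted p = 0.349) and Serpina1c (-0.18, adjusted p = 0.595) did not. The Serpina1 copies are near-identical in sequence, and probes can be shared between them. Mug2, a murinoglobulin that traps proteases in plasma and also belongs to a family of close copies, read 8.57, 8.35 and 9.12 in KO and 7.60, 6.97 and 7.08 in TG. Its difference was 1.47 on ND (adjusted p = 0.000591) and 3.88 on HFD, and the 2 differences were themselves unlike (adjusted p = 0.000528 for the interaction). WT on ND was above both, at 9.68, 9.57 and 9.22.

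Clock genes differed on ND. Of 11 measured clock genes known to peak towards evening in mouse liver, 8 were higher in KO, 1 was higher in TG and 2 did not pass, and the median difference was 2.03. Of 5 that peak towards morning, 3 were higher in TG, none was higher in KO and 2 did not pass, with a median of -0.85. Over all genes 1.71% were higher in KO and 2.49% higher in TG. Arrays of KO and TG did not overlap for any of the 11 evening genes, against 21.1% of all genes. These genes were listed by textbook phase with earlier results of these data known, and their counts describe these arrays only.

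**Figure D1:**
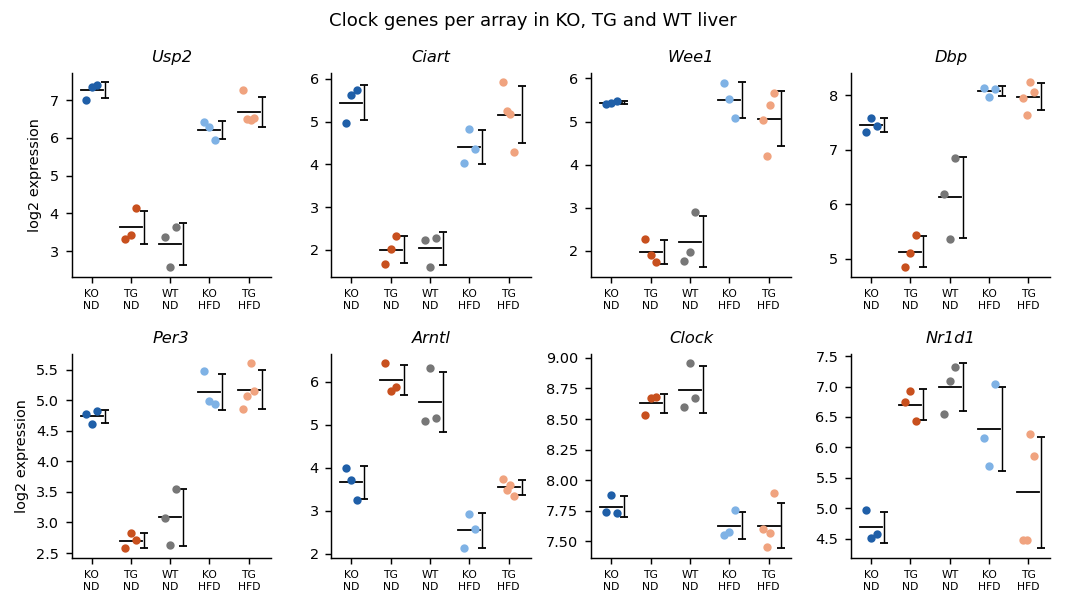
Log2 expression of 8 clock genes in each array (points), with group means (lines) and SD (brackets), for KO, TG and WT on ND and KO and TG on HFD. Usp2, Ciart, Wee1, Dbp and Per3 are high in the KO ND arrays and low in the TG ND arrays, Arntl, Clock and Nr1d1 the other way, and on HFD the KO and TG points lie close to each other in most panels.

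Usp2, a deubiquitinase under direct clock control, read 7.01, 7.35 and 7.40 in KO on ND and 3.33, 3.42 and 4.13 in TG. It differed by 3.63 (SE 0.26, adjusted p = 3.11e-07). Wee1, a kinase that holds back entry into mitosis, was at 5.41, 5.43 and 5.47 in KO and 2.28, 1.91 and 1.73 in TG (3.46, SE 0.34, adjusted p = 7.70e-06). KO arrays were nearly level for Wee1, while TG arrays spread more. Ciart, a repressor of the Clock and Arntl pair, was at 4.98, 5.61 and 5.73 in KO and 1.68, 2.02 and 2.32 in TG (3.43, adjusted p = 9.00e-06).

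The PAR-domain factors, which carry the clock's signal to output genes, differed in the same direction. Dbp read 7.33, 7.58 and 7.43 in KO and 4.85, 5.11 and 5.44 in TG (2.32, SE 0.26, adjusted p = 3.24e-05). Tef differed by 0.89 (adjusted p = 0.00444) and Hlf by 0.91 (adjusted p = 0.00198). Among the period genes, which feed back on the clock as repressors, Per3 was at 4.77, 4.61 and 4.82 in KO against 2.58, 2.83 and 2.71 in TG (2.03, adjusted p = 3.36e-05). Per1 was at 5.93, 6.29 and 6.34 against 2.95, 4.02 and 5.38 (2.07, adjusted p = 0.00360), and its TG arrays spread over more than 2 log2 units. Per2 was not measured by a probe set with 1 symbol. Nr1d2 (0.58, adjusted p = 0.0576) and Bhlhe41 (0.43, adjusted p = 0.690) were the evening genes that did not pass.

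Nr1d1, which encodes REV-ERB alpha, the repressor of Arntl, went against the other evening genes. It read 4.98, 4.51 and 4.57 in KO and 6.74, 6.93 and 6.43 in TG, a difference of -2.01 (SE 0.40, adjusted p = 0.00613). Bhlhe40, another repressor that was not counted by phase, was at 7.79, 7.71 and 7.71 in KO and 6.32, 6.58 and 6.49 in TG (1.27, adjusted p = 0.000296). The activators of the clock were lower in KO. Arntl, which encodes BMAL1, was at 4.00, 3.71 and 3.26 in KO and 6.43, 5.78 and 5.89 in TG (-2.38, adjusted p = 9.20e-05). Npas2 was at 0.66, 0.58 and 0.58 in KO and 3.67, 3.08 and 3.68 in TG (-2.87, adjusted p = 0.00292). Clock was at 7.74, 7.88 and 7.73 in KO and 8.54, 8.67 and 8.68 in TG, a smaller difference of -0.85 (adjusted p = 0.000747) with no overlap. Nfil3 (-0.65, adjusted p = 0.201) and Cry1 (0.13, adjusted p = 0.911) did not pass.

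Promoter sequence of 300 bases shows some of these genes to carry elements through which the clock is known to act. Elements outside that stretch were not searched, so a gene without a match there may hold them elsewhere. The windows below are 50 bases each, from RefSeq promoters of GRCm38.p6, written 5′ to 3′ on the strand of the gene, with the motif in capitals. They stand for the E-box CACGTG, bound by the Clock and Arntl pair, and for the D-box TTATGTAA, bound by Dbp, Tef and Hlf.
Per1, E-box, chr11:69098761-69098810, + strand: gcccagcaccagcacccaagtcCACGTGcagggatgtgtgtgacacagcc
Ciart, E-box, chr3:95882317-95882366, - strand: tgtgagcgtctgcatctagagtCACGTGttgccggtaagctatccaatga
Tef, E-box, chr15:81802524-81802573, + strand: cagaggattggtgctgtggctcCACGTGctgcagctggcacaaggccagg
Bhlhe41, E-box, chr6:145865546-145865595, - strand: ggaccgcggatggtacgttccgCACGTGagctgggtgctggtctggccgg
Per3, D-box, chr4:151044843-151044892, - strand: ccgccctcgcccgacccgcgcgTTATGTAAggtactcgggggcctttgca

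Of the 11 evening genes, 10 matched a RefSeq promoter of 300 bases (250 before the start and 50 after it). An E-box was found on either strand in 4 of the 10, Per1, Ciart, Tef and Bhlhe41, against 8.09% of 27025 genes with a promoter. The first 3 of these genes passed on ND and Bhlhe41 did not. The E-box was also found in 1 of 5 morning genes, Cry1, and in 4 of 15 cholesterol synthesis genes, a list described further on in which the genes that passed were higher in TG, but in none of 20 interferon genes. A D-box was found in Per3 alone of the 10, against 1.11% of all genes, and in none of those other lists. For the morning genes the elements TAGGTCA or TGGGTCA, bound by the ROR and REV-ERB receptors, were found in 2 of 5, Arntl and Nfil3, against 7.35% of all genes, and in none of the 10 evening genes, 2 of 15 cholesterol synthesis genes and 3 of 20 interferon genes. Motifs were searched on both strands, none of them contains another, and a match describes letters only.

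A clock score per array, the mean of the 11 evening genes minus the mean of the 5 morning genes, set KO and TG apart on ND. It was 1.08, 1.30 and 1.42 in KO and -2.04, -1.61 and -1.35 in TG. All KO arrays were positive and all TG arrays negative. The means were 1.27 ± 0.18 and -1.67 ± 0.35 (SD, n = 3 each), a difference of 2.93 with an exact two-sided permutation p of 0.1, the smallest that 20 splits of 3 against 3 allow. WT on ND spread widely, at -0.71, -2.09 and -0.19, with a mean of -0.999 ± 0.985 (SD, n = 3). On HFD the score was 1.85 ± 0.23 in KO (SD, n = 3) and 1.37 ± 0.35 in TG (SD, n = 4), a difference of 0.48 (exact permutation p = 0.114 over 35 splits).

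**Figure D2:**
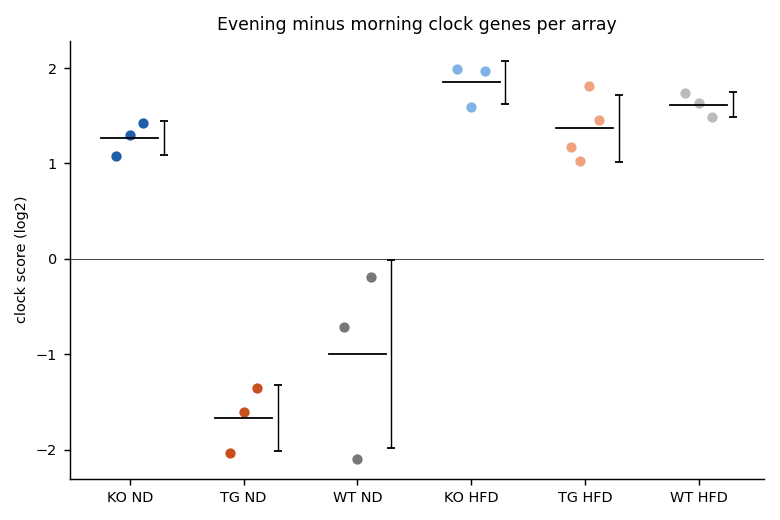
Clock score (log2, mean of 11 evening genes minus mean of 5 morning genes) of each array (points) in the 6 groups, with group means (lines) and SD (brackets). KO on ND lies between 1.08 and 1.42 and TG on ND between -2.04 and -1.35, while all HFD arrays lie above 1.

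Clock score and genotype cannot be told apart in these 6 arrays, since the score does not overlap between KO and TG on ND and the hour of harvest is not given. With the score added to the limma model as a covariate, 5 of the 931 calls were left, with a median SE over all genes of 0.40 in place of 0.17. The calls left were Serpina1d, Kcp, Corin, Meiob, a gene of meiosis (-2.74 without the covariate), and 1 predicted gene. Among the 931 genes the median size of the difference went from 0.91 to 0.88, and 910 kept their sign. Larger errors by themselves add to such sizes, so this median does not show that differences held. Medians of lists described below moved unequally. They went from -0.52 to -0.18 for inflammatory genes, from -0.99 to -0.93 for macrophage markers and from -1.13 to -1.85 for cholesterol synthesis. Of the 35 gene lists with a call on ND, 2 had one with the covariate, through Kcp and Serpina1d. This holds for every list count below.

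Liver genes with a daily rhythm outside the core clock also differed. Of 17 measured, 6 were higher in KO (1.71% of all genes), 2 were higher in TG (2.49% of all genes) and 9 did not pass, with a median of 0.43. Lpin1, a phosphatidate phosphatase of triglyceride synthesis that also acts as a transcriptional coactivator, read 9.59, 10.52 and 10.30 in KO and 6.08, 6.31 and 7.34 in TG (3.56, SE 0.48, adjusted p = 0.000264). Thrsp, a thyroid hormone-responsive gene of fatty acid synthesis, was at 10.66, 10.57 and 10.63 in KO and 7.69, 7.68 and 7.96 in TG (2.84, adjusted p = 2.18e-05). St3gal5, the synthase of the ganglioside GM3, differed by 1.91 (adjusted p = 0.000192). Rgs16, a regulator of G-protein signalling, differed by 3.32 (adjusted p = 0.00784), and its TG arrays, at 3.88, 4.54 and 6.91, were spread widely. Its call was lost without TG replicate 1 (adjusted p = 0.0521).

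The vasopressin receptor Avpr1a was the largest rhythmic gene in the other direction. It read 2.94, 3.40 and 3.55 in KO and 6.97, 6.57 and 6.66 in TG, a difference of -3.43 (SE 0.30, adjusted p = 1.95e-06), with WT in between at 5.71, 5.51 and 5.11. Elovl3, an elongase of very long fatty acids that is higher in male liver, was at 8.68, 9.21 and 8.65 in KO and 10.86, 10.40 and 10.03 in TG (-1.58, adjusted p = 0.00217). On HFD it differed the other way, by 1.08 (adjusted p = 0.0305).

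Genes of the lipid droplet and of fatty acid uptake were higher in KO. Of 22 measured, 11 were higher in KO, none was higher in TG and 11 did not pass; the median difference was 1.13 with 21 of 22 differences above 0. Leaving out 1 array at a time left 8 to 10. The share higher in KO over all genes was 1.71%. Cidec, a droplet protein that promotes fusion of droplets, read 6.85, 5.87 and 5.30 in KO and 2.42, 1.95 and 1.42 in TG (4.08, SE 0.63, adjusted p = 0.000918). WT lay with TG, at 2.48, 2.11 and 2.93. Plin4, a perilipin that coats droplets, was at 5.08, 5.15 and 5.12 in KO, 2.43, 2.31 and 2.21 in TG and 3.59, 3.58 and 3.81 in WT (KO minus TG 2.80, adjusted p = 0.000190). Unlike Cidec, Plin4 had its WT arrays between the groups.

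Cd36, the fatty acid translocase, was at 8.99, 8.84 and 8.64 in KO and 6.46, 6.32 and 6.40 in TG. It differed by 2.43 (SE 0.26, adjusted p = 2.18e-05), and WT at 7.38, 7.80 and 7.88 was again between the groups, with KO minus WT at 1.13 (adjusted p = 0.0207) and TG minus WT at -1.30 (adjusted p = 0.0142). These WT comparisons share arrays with that of KO and TG. Apoa4, an apolipoprotein of triglyceride-rich particles, was at 10.92, 10.84 and 9.74 in KO and 7.93, 8.10 and 7.90 in TG (2.53, adjusted p = 4.10e-05). Cidea, a relative of Cidec, was at 6.11, 3.80 and 2.59 in KO and 0.92, 0.76 and 0.94 in TG, and its difference of 3.29 (adjusted p = 0.0318) was lost without 5 of the 6 arrays (adjusted p up to 0.158, without KO replicate 1). On HFD 8 of the 22 genes were higher in KO, against 1.46% of all genes, and none in TG. On both diets 6 of the 22 were higher in KO, Cd36 (2.09 on HFD) and Plin4 (1.97) among them. Over all 22180 genes, 76 were higher in KO on both diets.

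**Figure D3:**
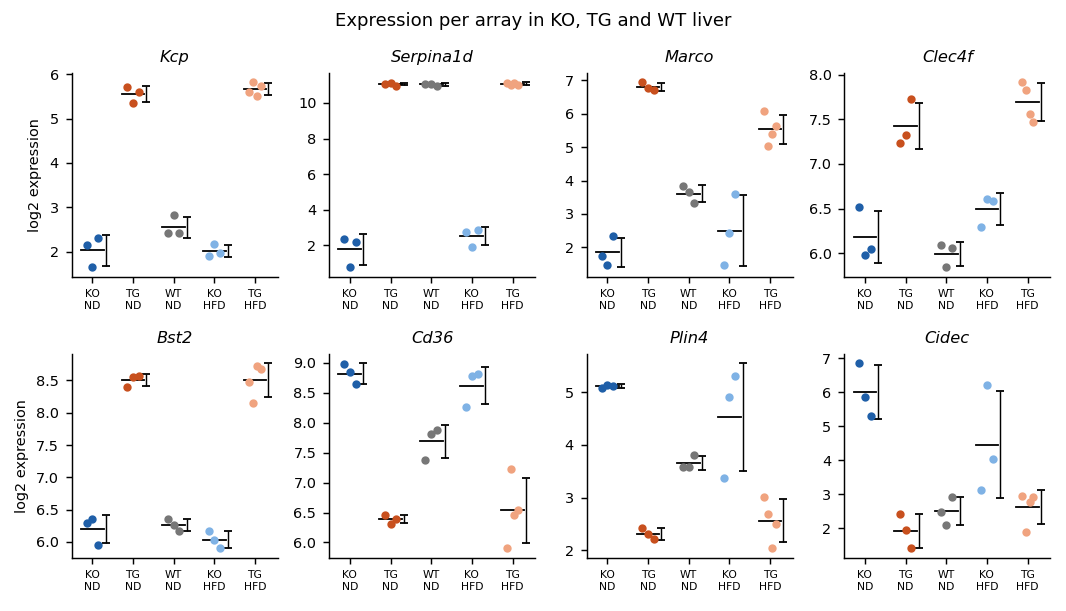
Log2 expression per array (points), group mean (lines) and SD (brackets) of Kcp, Serpina1d, 2 macrophage genes (Marco, Clec4f), the interferon-response gene Bst2 and 3 lipid genes (Cd36, Plin4, Cidec), in KO, TG and WT on ND and KO and TG on HFD. Kcp, Marco, Clec4f and Bst2 are high in the TG arrays of both diets, Serpina1d is low in the KO arrays alone, and the lipid genes are higher in KO than in TG on ND.

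Of 24 genes of fatty acid and triglyceride synthesis measured, 4 were higher in KO, against 1.71% of all genes, none was higher in TG and 20 did not pass (median 0.31), and the count stayed at 4 without any 1 array. Besides Lpin1 and Thrsp they were Lpin2, a second phosphatidate phosphatase (8.53, 8.87 and 8.80 in KO against 7.12, 7.34 and 7.65 in TG, difference 1.36, adjusted p = 0.000234), and Dgat2, which makes triglyceride from diacylglycerol (0.65, adjusted p = 0.00218). For all 4 the ND difference was unlike that on HFD (limma interaction, adjusted p under 0.05), against 1.07% of all genes. Diet cannot be told apart there from batch or hour of harvest. On HFD Lpin1 was at -0.69, Thrsp at -0.25, Lpin2 at -0.01 and Dgat2 at -0.04, none of which passed.

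Fatty acid oxidation genes and targets of the nuclear receptor PPARA were higher in KO for 7 of 28 measured, against 1.71% of all genes. None was higher in TG and 21 did not pass (median 0.45, with 24 of 28 above 0). The count fell to 3 without KO replicate 2 and to 3 without KO replicate 3. Acot3, a peroxisomal acyl-CoA thioesterase, read 5.42, 4.62 and 5.03 in KO and 1.97, 1.93 and 1.49 in TG (3.23, SE 0.52, adjusted p = 0.00123). Pex11a, which acts in peroxisome division, was at 8.29, 8.49 and 8.23 against 6.55, 6.94 and 6.36 (1.72, adjusted p = 0.00174). Cpt1a, the gatekeeper of mitochondrial fatty acid entry, differed by 0.70 (adjusted p = 0.00753). Ppara itself differed by 0.84 (adjusted p = 0.0163) and lost its call without 3 of the 6 arrays (adjusted p up to 0.0829, without TG replicate 3).

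Cholesterol synthesis genes went the other way. All 19 measured genes were lower in KO than in TG, with a median of -1.13. Of these 7 passed and 12 did not, against 2.49% of all genes passing as higher in TG. The count was 3 without KO replicate 1, 4 without KO replicate 2, 4 without KO replicate 3, 3 without TG replicate 1 and 2 without TG replicate 2. Sqle, squalene epoxidase, read 3.18, 3.55 and 3.95 in KO and 6.72, 7.01 and 6.23 in TG (-3.09, SE 0.60, adjusted p = 0.00507), with WT spread from 2.98 to 4.99. Msmo1, a sterol demethylase, was at 4.79, 4.92 and 5.12 in KO and 6.86, 6.81 and 6.37 in TG (-1.74, adjusted p = 0.00507). Srebf2, the transcription factor that drives this pathway when sterols are low, differed by -0.65 (adjusted p = 0.00929) and lost its call without 2 arrays (adjusted p up to 0.0531, without KO replicate 1).

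Hmgcs1, which makes the precursor of mevalonate, was at 7.93, 7.76 and 7.55 in KO and 9.92, 9.89 and 9.48 in TG (-2.02, adjusted p = 0.0134). Without 3 of the arrays its call was lost (adjusted p up to 0.0552, without KO replicate 3). Of the cholesterol genes with a promoter in the RefSeq set, 1 of 15 had the sterol element TCACNCCAC, against 1.44% of all genes, and it was Hmgcs1, shown here with the element in capitals.
Hmgcs1, sterol element, chr13:119690192-119690241, + strand: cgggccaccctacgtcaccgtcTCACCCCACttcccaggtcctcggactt
On HFD none of the 19 genes passed (median -0.07), against 2.35% of all genes. The test of the diets against each other passed for none of the 19 either, against 1.07% of all genes.

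Genes of gluconeogenesis, glycolysis and glycogen were higher in KO for 6 of 18, against 1.71% of all genes. None was higher in TG and 12 did not pass (median 0.55). Without KO replicate 2 the count was 2. Gys2, the glycogen synthase of liver, read 9.42, 9.31 and 9.39 in KO and 8.38, 8.41 and 8.42 in TG (0.97, SE 0.12, adjusted p = 7.49e-05), with little spread in either group. Pcx, pyruvate carboxylase, differed by 0.66 (adjusted p = 0.00496) and Ugp2, which makes UDP-glucose, by 0.69 (adjusted p = 0.0110, lost without KO replicate 2 at adjusted p = 0.0616). Pck1, the rate-limiting enzyme of gluconeogenesis, was higher in KO on ND (0.72, adjusted p = 0.0215) and lower in KO on HFD (-0.71, adjusted p = 0.0253), though the ND call was lost without 4 of the 6 arrays (adjusted p up to 0.123, without TG replicate 1). Foxo1, a transcription factor that insulin holds out of the nucleus, differed by 0.70 (adjusted p = 0.0136), lost without 4 arrays (adjusted p up to 0.0713, without KO replicate 2).

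Markers of Kupffer cells and macrophages were higher in TG. Of 26 measured, 13 were higher in TG, none was higher in KO and 13 did not pass; the median difference was -0.99 with 24 of 26 below 0. Leaving out 1 array at a time left 9 to 15, and 2.49% of all genes were higher in TG. The mean level over the 26 markers lay between 3.91 and 4.33 in KO arrays and between 4.91 and 5.36 in TG arrays, with WT on ND at 3.90 to 4.04, near KO. Marco, a scavenger receptor that binds bacteria, read 1.74, 1.45 and 2.33 in KO and 6.94, 6.77 and 6.72 in TG (-4.97, SE 0.39, adjusted p = 8.25e-07), with WT between them at 3.84, 3.65 and 3.32. It had the largest difference after Serpina1d.

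Clec4f, a lectin found on Kupffer cells and used as their marker in mice, was at 6.52, 5.98 and 6.05 in KO and 7.23, 7.32 and 7.72 in TG (-1.24, adjusted p = 0.000627). Csf1r, the receptor for the macrophage growth factor, was at 5.44, 5.19 and 4.83 in KO and 6.29, 6.18 and 6.98 in TG (-1.33, adjusted p = 0.00133). Cd68, a lysosomal protein of macrophages, differed by -1.54 (adjusted p = 0.000622). For these 3 genes WT lay near KO, with TG minus WT at 1.43, 1.54 and 1.78 and KO minus WT at 0.19, 0.21 and 0.25, comparisons that share arrays with that of KO and TG.

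Of 11 hepatocyte genes 1 passed, an apolipoprotein gene higher in KO (0.52, adjusted p = 0.0140), against 1.71% of all genes. That call was lost without KO replicate 1, KO replicate 2 or TG replicate 2. In the remaining cell type lists every call was in the direction of TG, the direction in which 2.49% of all genes passed. Among liver sinusoidal endothelial genes 1 of 15 was higher in TG, Dnase1l3 (-0.85, adjusted p = 0.0160, lost without 3 arrays, adjusted p up to 0.0854 without TG replicate 3), with a list median of -0.42. Of 30 genes of stellate cells, fibroblasts and extracellular matrix 3 were higher in TG, the stellate cell glycoprotein Reln (-0.62, adjusted p = 0.00195), the matrix proteoglycan lumican, Lum (-0.996), and the PDGF receptor Pdgfrb (-0.86, lost without any 1 of the 6 arrays), and the count was 1 without KO replicate 1, KO replicate 2, TG replicate 2 or TG replicate 3. Of 15 T and NK cell genes 3 were higher in TG, Cd3g (-1.36), Cd4 (-1.35) and Cxcr6 (-0.59), but 14 of the 15 had a mean below 2, and the count was 0 without KO replicate 2, TG replicate 1 or TG replicate 3 and 1 without KO replicate 3. Ighm, the heavy chain of immunoglobulin M, was the 1 of 10 B-cell and plasma cell genes that passed (2.92, 4.22 and 3.52 in KO against 5.76, 5.50 and 5.77 in TG, -2.12, adjusted p = 0.00324). No gene passed in the lists for neutrophils (12), adipocytes (6), red cells (2) and pancreas or gut (7). In that order 12, 4, 2 and 6 of these genes had a mean below 2, so their lack of calls says little about those cells. Of 7 bile duct genes, 6 of them with a mean below 2, 1 passed, the transcription factor Sox9 (2.51, 2.92 and 3.58 in KO against 5.00, 5.35 and 4.43 in TG, -1.92, adjusted p = 0.00734).

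Genes induced by interferon were higher in TG as well. Of 26 measured 9 were higher in TG, against 2.49% of all genes, and 6 to 9 when 1 array was left out. None was higher in KO and 17 did not pass (median -0.63). Bst2, which tethers budding viruses to the cell, read 6.29, 6.35 and 5.95 in KO and 8.41, 8.55 and 8.56 in TG (-2.31, SE 0.27, adjusted p = 4.85e-05), and WT was at 6.35, 6.26 and 6.16. Ifi27 was at 5.68, 6.31 and 6.14 against 7.55, 8.02 and 7.49 (-1.65, adjusted p = 3.86e-05). Zbp1, a sensor of nucleic acids, was at 3.54, 3.38 and 3.62 against 4.78, 4.76 and 4.72 (-1.24, adjusted p = 0.00245), and Usp18, a brake on the interferon receptor, differed by -1.65 (adjusted p = 0.00532). Other standard members did not pass, among them Ifit3 (-0.27, adjusted p = 0.642) and Irf7, the amplifier of the response (-0.57, adjusted p = 0.180). The macrophage marker levels given above moved with these genes, and their part in the result was not tested.

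The interferon-stimulated response element (GAAA, any 2 bases, GAAA), known from promoters of interferon-induced genes, was found in the promoters of 16 of 20 interferon genes in the RefSeq set, against 3.99% of all genes. Of the 6 with a promoter that passed on ND, 5 had it. Windows of 4 of them follow, with the element, or its reverse complement, in capitals. In Bst2 and Irgm1 a pair of matches overlap and are capitalised together.
Bst2, chr8:71537575-71537624, - strand: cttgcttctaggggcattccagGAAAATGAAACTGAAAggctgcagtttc
Stat2, chr10:128270254-128270303, + strand: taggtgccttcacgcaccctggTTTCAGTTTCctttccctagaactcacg
Irgm1, chr11:48871423-48871472, - strand: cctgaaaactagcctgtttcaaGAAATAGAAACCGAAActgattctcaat
Trim30d, chr7:104507863-104507912, - strand: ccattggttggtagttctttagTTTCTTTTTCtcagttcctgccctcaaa
Stat2 differed by -0.63 (adjusted p = 0.0212), Irgm1 by -0.62 (adjusted p = 0.0412) and Trim30d by -1.83 (adjusted p = 0.0140). These calls were lost without 3, 5 and 3 of the arrays (adjusted p up to 0.107 and 0.0761 for Stat2 and Trim30d without KO replicate 1, and 0.180 for Irgm1 without KO replicate 2). Ifit3, which did not pass, holds the element too.

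Inflammatory cytokines, chemokines and adhesion molecules were higher in TG for 7 of 26, with none higher in KO and 19 not passing (median -0.52, against 2.49% of all genes higher in TG), but 12 of the 26 had a mean below 2. The count was 2 without KO replicate 2, 3 without KO replicate 3, 4 without TG replicate 2 and 2 without TG replicate 3. Il1b read 1.15, 1.73 and 0.73 in KO and 3.12, 2.95 and 3.09 in TG (-1.85, adjusted p = 0.00278). Cxcl13, a chemokine that draws B cells, was at 3.73, 3.42 and 4.04 in KO and 5.92, 6.54 and 7.35 in TG (-2.87, adjusted p = 0.00887), lost without TG replicate 3 (adjusted p = 0.0534). Ccl9 was higher in TG than in KO (-1.39, adjusted p = 0.00949), yet its WT arrays, at 8.87, 8.84 and 8.76, were above both. It was lost without KO replicate 2 (adjusted p = 0.0566). Macrophages are among the cells that make Il1b, Cxcl13 and Ccl9, and their marker levels, given above, moved with this list (13 of 26 markers higher in TG), with no test made of their part in it.

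Acute-phase proteins, which hepatocytes secrete in inflammation, passed for 2 of 21, against 4.2% of all genes (list median -0.41, with 18 of 21 below 0). These were Orm2 (-3.17, adjusted p = 0.0365) and Saa3 (-1.80, adjusted p = 0.0153), and leaving out any 1 of the 6 arrays left 1 or 0. Orm2 read 6.21, 5.17 and 5.61 in KO and 9.50, 8.32 and 8.68 in TG, so that the arrays did not overlap, but its error was large (SE 0.83, adjusted p up to 0.146 without TG replicate 1). Complement genes were higher in TG for 4 of 23, against 2.49% of all genes (list median -0.11). They were Fcna, a ficolin (-0.90, adjusted p = 0.00242), properdin, Cfp (-1.29, adjusted p = 0.00529), C2 (-0.85, adjusted p = 0.00710) and C1ra (-0.59, adjusted p = 0.0110, lost without 2 arrays, adjusted p up to 0.0639 without TG replicate 1). All 4 were higher in TG on HFD as well, by -0.84, -1.08, -1.16 and -0.63, where 0.897% of all genes were higher in TG. Fcna and Cfp are made by macrophages, whose marker levels, given above, moved with them, and the part of these in the result was not tested.

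Of 43 measured genes of BMP and TGF-beta signalling, the pathway in which Kcp acts, 4 were higher in TG, Kcp among them, 1 was higher in KO and 38 did not pass, with a median of -0.14. Over all genes 2.49% were higher in TG and 1.71% higher in KO. The count higher in TG was 2 without KO replicate 3 or TG replicate 1. Among ligands, Inhba, the subunit of activin A, read 4.22, 4.16 and 3.86 in KO and 4.90, 5.32 and 5.47 in TG (-1.15, SE 0.23, adjusted p = 0.00703), with WT near KO at 3.49, 4.06 and 3.71. Tgfb1 differed by -0.93 (adjusted p = 0.0212), lost without 5 arrays (adjusted p up to 0.138, without KO replicate 2). Bmp7 was higher in KO, at 3.88, 2.84 and 3.24 against 1.68, 2.02 and 2.37 (1.30, adjusted p = 0.0148), a call lost without 3 arrays (adjusted p up to 0.0833, without KO replicate 1). Among extracellular binders, Fst, which traps activin, was at 1.59, 1.88 and 1.38 in KO and 3.84, 3.34 and 2.75 in TG (-1.69, adjusted p = 0.0128), lost without 2 arrays (adjusted p up to 0.0783, without TG replicate 1).

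No receptor or SMAD gene on the list passed. Of 19 genes known as targets of the pathway, 1 was higher in each group and 17 did not pass (median -0.14). Shares over all genes were 1.71% higher in KO and 2.49% higher in TG. Id2 was higher in TG (-1.0, adjusted p = 0.0149), a call lost without KO replicate 2 or TG replicate 2 (adjusted p up to 0.0951). Ccn2, a matrix-associated growth factor gene, was higher in KO (1.18, adjusted p = 0.0450), a call lost without 4 arrays (adjusted p up to 0.218, without TG replicate 1). Id1, a direct BMP target, read 2.76, 2.33 and 2.39 in KO and 2.22, 2.33 and 2.25 in TG. Its difference was 0.23 (95% interval -0.19 to 0.65, adjusted p = 0.688), and the arrays touched. Hamp, the hepcidin gene, was at 11.34, 11.27 and 11.23 against 11.20, 11.38 and 11.39 (-0.04, interval -0.58 to 0.49, adjusted p = 0.969). Smad7, the inhibitory SMAD, was at 4.21, 3.99 and 4.13 against 3.84, 4.25 and 4.07 (0.06, interval -0.36 to 0.48, adjusted p = 0.946), and the groups overlapped.

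Male-biased liver genes were higher in TG for 5 of 21, against 2.49% of all genes, and in KO for none (median -0.44). Female-biased genes were higher in KO for 3 of 22, against 1.71% of all genes, and in TG for none (median 0.28). Apart from Serpina1e and Elovl3, the male-biased genes that passed were Susd4, a complement regulator (4.51, 4.48 and 4.79 in KO against 6.44, 6.49 and 6.12 in TG, -1.76, adjusted p = 0.000451), Mup20, a major urinary protein also called darcin (-0.94, adjusted p = 0.000622), and Gstp1, a glutathione transferase (-1.15, adjusted p = 0.0354). Gstp1 was lost without 4 arrays (adjusted p up to 0.149, without TG replicate 2). The female-biased genes were Cd36, Acot3 and Fmo2, a flavin monooxygenase. Fmo2 read 5.83, 6.01 and 6.45 in KO and 2.79, 3.83 and 3.60 in TG (2.69, SE 0.22, adjusted p = 1.06e-06). On HFD the counts were 8 of 21 male-biased genes higher in TG (0.897% of all genes) and 7 of 22 female-biased genes higher in KO (1.46% of all genes).

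Drug and bile acid metabolism gave mixed calls, beside shares over all genes of 1.71% higher in KO and 2.49% higher in TG. Of 34 xenobiotic-metabolising enzymes 2 were higher in KO and 1 in TG (median 0.15). Cyp2b10, the standard target of the receptor CAR, read 5.48, 3.99 and 4.98 in KO and 1.92, 0.59 and 1.93 in TG (3.34, SE 0.63, adjusted p = 0.00403), while WT alone ran from 1.42 to 5.18. Cyp2c39 was the other enzyme higher in KO (1.36, adjusted p = 0.0240), lost without 5 arrays (adjusted p up to 0.145, without KO replicate 2). Of 21 bile acid genes 1 was higher in KO, Cyp39a1, an oxysterol hydroxylase (1.85, adjusted p = 0.00155). Those higher in TG were 2, Abcb11, the bile salt export pump (9.01, 9.07 and 9.32 in KO against 9.91, 9.99 and 10.18 in TG, -0.89, adjusted p = 0.000533), and Hsd3b7, whose call was lost without any 1 of the 6 arrays (adjusted p up to 0.163, without TG replicate 1).

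Among markers of position in the liver lobule, 1 of 14 pericentral and 3 of 12 periportal genes passed, against 4.2% of all genes. Of the 14 pericentral genes it was the glutamate transporter Slc1a2 (higher in TG, -0.80, adjusted p = 0.0354), lost without 5 arrays (adjusted p up to 0.155, without KO replicate 1). Of the periportal genes 2 were higher in TG and 1, Pck1, in KO, with a list median of 0.0033. Hal, histidine ammonia-lyase, read 8.46, 8.00 and 8.43 in KO and 9.13, 9.18 and 9.20 in TG (-0.87, adjusted p = 0.00179), and Gldc, of the glycine cleavage system, differed by -0.61 (adjusted p = 0.00471).

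Several genes outside these lists were among the largest differences. Mfsd2a, a carrier that takes up lysophosphatidylcholine, read 9.36, 9.56 and 9.51 in KO and 4.81, 4.59 and 6.62 in TG (4.14, SE 0.44, adjusted p = 2.18e-05), the largest difference named here with KO higher. WT lay between the groups at 6.66, 6.17 and 6.26. Ntrk2, the receptor for brain-derived neurotrophic factor, was at 3.91, 3.97 and 2.59 in KO and 0.47, 0.68 and 0.87 in TG (2.81, adjusted p = 4.10e-05), with WT near TG. Clec2h, a C-type lectin, was at 4.12, 4.18 and 5.84 in KO and 1.38, 1.37 and 2.29 in TG (3.03, adjusted p = 0.00956), with WT above both at 7.20, 6.24 and 6.76. It was lost without KO replicate 3 (adjusted p = 0.0595).

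In the other direction, Corin, the protease that activates atrial natriuretic peptide, read 1.84, 1.66 and 1.61 in KO and 4.94, 4.18 and 5.12 in TG (-3.04, SE 0.24, adjusted p = 1.06e-06), with WT at 2.21, 1.87 and 2.25. Chrm3, a muscarinic acetylcholine receptor, was at 0.31, 0.72 and 0.58 in KO and 3.09, 3.05 and 3.83 in TG (-2.79, adjusted p = 0.00226). Hspe1, the mitochondrial chaperonin subunit HSP10, was at 5.31, 4.85 and 5.33 in KO and 3.75, 2.93 and 2.60 in TG (2.07, adjusted p = 0.00769). Of 16 heat-shock genes it was the 1 higher in KO, while 1 was higher in TG and 14 did not pass, against 4.2% of all genes passing. WT, at 5.36, 5.31 and 5.13, matched KO for Hspe1 within its spread.

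**Figure D4:**
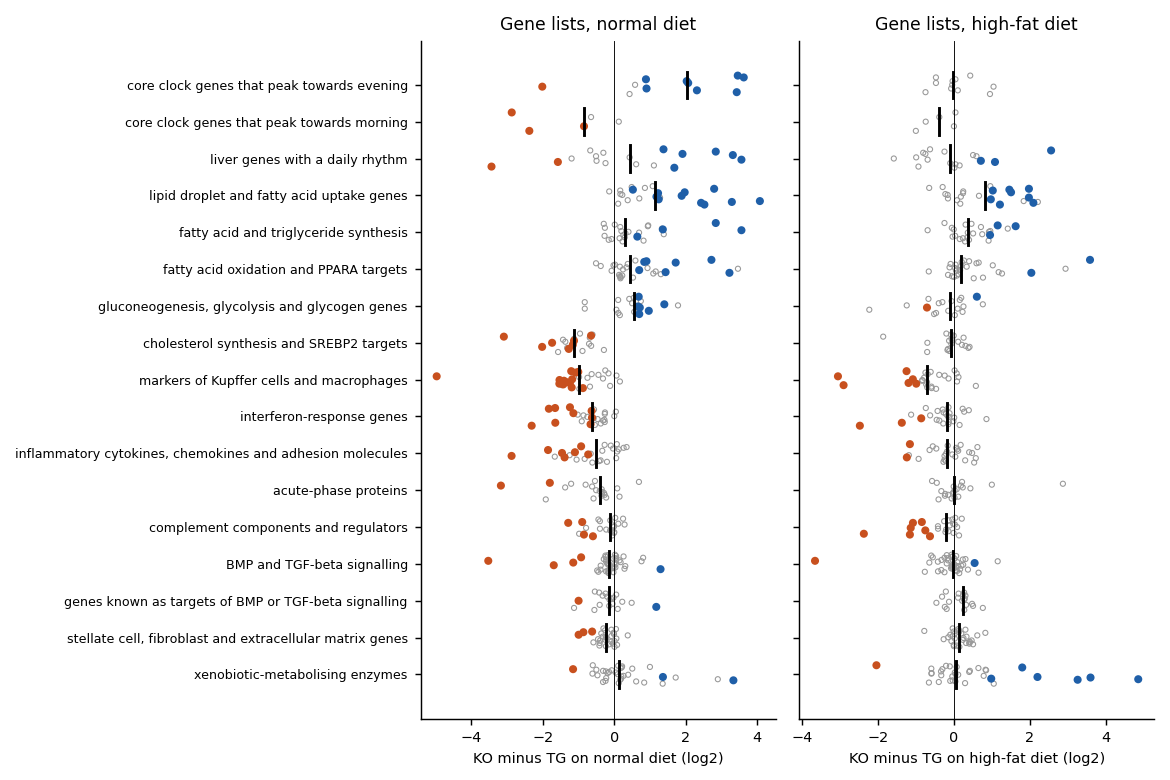
KO minus TG difference (log2) of every measured gene of 17 gene lists on ND (left) and HFD (right), one point per gene. Blue points passed as higher in KO, orange points as higher in TG, open points did not pass, and black bars are list medians. On ND the median is 2.03 for evening clock genes, 1.13 for lipid droplet genes, -1.13 for cholesterol synthesis and -0.99 for macrophage markers, and on HFD it is -0.04, 0.81, -0.07 and -0.70.

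KO and TG mice were also compared on HFD, in 7 arrays that share none with ND. There 522 genes differed (2.35%), 323 higher in KO (1.46%) and 199 higher in TG (0.897%). Genes that differed the same way on both diets numbered 162 (0.73% of all genes), 76 higher in KO and 86 higher in TG. They made up 17.4% of the ND calls and 31.0% of the HFD calls. A further 10 genes passed on both diets in opposite directions. The difference between diets passed for 238 of all genes (1.07%) and for 180 of the 931 genes that differed on ND (19.3%). Genes chosen for a call on ND are more likely to show such a difference, since part of it is the ND value itself.

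**Figure D5:**
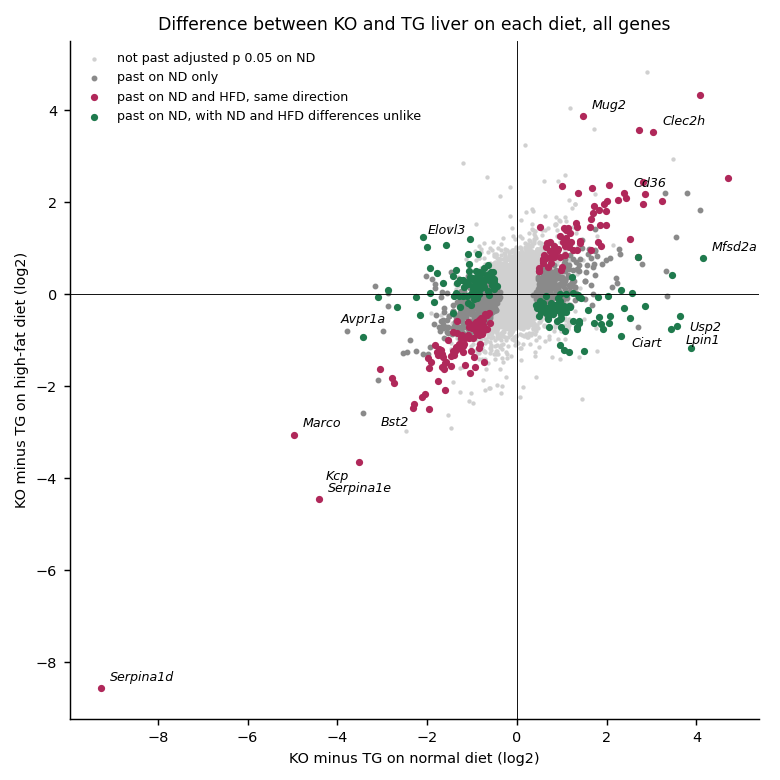
KO minus TG difference on ND (horizontal axis, log2) against that on HFD (vertical axis, log2), one point per gene for 22180 genes. Light grey points did not pass on ND, dark grey passed on ND only, red passed the same way on both diets (162 genes), and green passed on ND with an ND difference that differed from the HFD difference; Serpina1d, Serpina1e, Kcp and Marco lie far from 0 on both axes, and Usp2, Ciart and Lpin1 lie near 0 on the vertical axis.

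The lists did not all behave alike between the ND and HFD arrays. Diet cannot be told apart here from batch or hour of harvest, which are not given. Over all genes 1.07% passed the interaction, a share at which a list of 26 can hold none, so that a count of none says little. The 8 evening clock genes that passed the interaction included Usp2 (3.63 on ND and -0.47 on HFD, adjusted p = 3.34e-05 for the interaction), Ciart (3.43 and -0.75, adjusted p = 0.000219) and Dbp (2.32 and 0.10, adjusted p = 0.00319). No evening gene passed on HFD. Among macrophage markers the interaction passed for none of 26. On HFD 6 of them were higher in TG (median -0.70), against 0.897% of all genes. Marco differed there by -3.05 (adjusted p = 0.000165) and Clec4f by -1.20 (adjusted p = 0.000863). Interferon genes passed as higher in TG for 3 of 26 on HFD, against 0.897% of all genes. They were Bst2 (-2.47, adjusted p = 3.13e-05), Ifi27 (-1.37, adjusted p = 0.000236) and Irf7 (-0.86, adjusted p = 0.0296), and Zbp1 at -0.14 did not pass. None of the 26 passed the interaction. Of the lipid droplet genes 1 of 22 passed it, the perilipin Plin3 (0.52 on ND and 1.46 on HFD, adjusted p = 0.0125 for the interaction).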

How the data were processed

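Whole mouse liver RNA was measured on 19 arrays of 1 colour, 1 per sample. The authors deposited log2 values per probe set, already normalized between arrays; affy, RMA and limma are named, without version or role, per the submitters' processing notes. The log base is not given in the sources used here and was taken as 2 from these tools and from how far the values range. Another base would scale every difference by 1 factor and leave tests and directions as they are. Array medians lay between 0.983 and 1.08. Arrays carry no read depth, and their number limits the precision.

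Of 41345 probe sets, 23521 had 1 gene symbol in the platform annotation, 1814 several and 16010 none here; the last 2 kinds were left out. Of the 23521, 23328 were matched by Entrez identifier to RefSeq genes of GRCm38.p6, with no symbol changed. The brightest probe set stood for a gene (1082 genes had more than 1), which gave 22180 genes, of which 56.5% had a mean below 2. No dim gene was removed.

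All 19 arrays were fitted as 6 group means with limma 3.58.1 (lmFit, eBayes; 13 residual and 4.76 prior degrees of freedom) in R 4.3.3, and all adjusted p-values of genes are two-sided Benjamini-Hochberg values from this limma fit over all genes, at a threshold of 0.05. Clock scores were compared by two-sided exact permutation tests. On simulated data of the same size, the fit recovered 20%, 70%, 100% and 100% of 50 genes changed by 0.5, 1, 2 and 3 (log2), with 4 false calls.

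The comparison and its 39 gene lists (762 entries, 86 not found) were chosen with earlier results of these data known. Genes were named by rule: up to 15 largest differences each way among genes that passed with no overlap of arrays, up to 4 members of smallest p per list with a call, and the clock genes, Kcp, Id1, Hamp, Smad7 and Serpina1a to Serpina1e whatever their value; the text names a selection. Outside this rule Tgfb1, Meiob, Ifit3, Irf7, Stat2, Irgm1, Trim30d and Plin3 were named after their values were seen. Predicted genes were counted and not named. Alternatives were other sets of arrays, a minimum mean of 2, a trended robust prior, median centring, repeated quantile normalization, probe set means, the clock score as a covariate and leaving out each array. Samples' titles gave the groups. WT comparisons share arrays with that of KO and TG and stand beside it as values only.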

Additional observations from a re-analysis of the deposited data

Results flagged for a closer look

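In 31 of the genes named, the difference between KO and TG on ND was itself unlike that on HFD (limma interaction, adjusted p under 0.05). The ND difference minus the HFD difference is given for each, in log2. Among clock genes it was 4.10 for Usp2, 4.18 for Ciart, 3.03 for Wee1, 2.55 for Per1, 2.22 for Dbp, 2.07 for Per3, 0.98 for Hlf, -3.05 for Nr1d1 and -0.84 for Clock. Among rhythmic and lipid genes it was 4.26 for Lpin1, 3.09 for Thrsp, 2.66 for St3gal5, 3.35 for Mfsd2a, 1.37 for Lpin2, 0.69 for Dgat2, -0.93 for Plin3, -2.50 for Avpr1a and -2.65 for Elovl3. Among genes of glucose, bile acid and drug metabolism it was 1.12 for Gys2, 1.22 for Foxo1, 1.43 for Pck1, 1.89 for Fmo2, -0.81 for Abcb11, -1.29 for Hsd3b7 and -0.88 for Hal. For the remaining genes it was -2.41 for Mug2, -0.61 for Reln, -1.42 for Corin, 3.04 for Fkbp5, 2.07 for Dusp1 and -2.20 for Cldn1. Elovl3, Hsd3b7, Pck1 and Dusp1 passed on both diets in opposite directions.

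In the 4 TG arrays on HFD, 8 of the 118 genes named had 1 array apart from the other 3. The gap to the nearest array, over the group's range, was above Dixon's 95% critical value. Replicate 1 read 7.28 for Usp2 and 7.68 for Cldn1, replicate 2 read 0.87 for Bhlhe41 and 6.34 for Elovl3, replicate 3 read 5.52 for Hlf and 4.12 for Fmo2, and replicate 4 read 9.67 for Gys2 and 10.9 for Mup20. Each of the 4 arrays stood apart for 2 genes, and chance alone sets an array apart in about 5% of groups. Groups of 3 arrays, KO and TG on ND among them, were not examined in this way.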

How the results depend on the processing

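The 931 genes that differed on ND became 725 to 1137 under the other array sets, filter, prior, normalizations and probe set rule, and 5 with the clock score as covariate. Without 1 array they were 568 to 783. The 522 genes on HFD became 156 in a fit of the compared HFD arrays alone, 325 with the covariate and 271 to 598 without 1 array (309, 271 and 320 without KO HFD replicates 1, 2 and 3). The 238 interactions became 371 among genes with a mean of at least 2, 2 with the covariate and 112 to 296 without 1 array. The lowest of these counts were 112 and 125 without KO ND replicates 2 and 3, 113 and 139 without TG ND replicates 1 and 2, and 135, 133 and 149 without KO HFD replicates 1, 2 and 3. The cause of these shifts was not tested, beyond fewer arrays in a fit and the larger errors under the covariate. The difference in clock score on ND was between 2.60 and 3.09 in its alternatives, leaving out each array included.

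Of 118 single genes named here, none changed sign under centring, repeated quantile normalization, probe set means, the filter, the prior or the other array sets, and 16 lost their call in a fit of the 6 compared arrays alone and 3 to 5 under each of the others but the filter. Under the covariate 102 of the 106 called genes lost their call, and 8 of the 118 changed sign with no call there: Nr1d2 (-0.26), Bhlhe41 (-1.75), Npas2 (1.13), Nfil3 (0.79), Hamp (0.031), Cd4 (0.12), Irf7 (0.015) and Irgm1 (0.031). Nr1d2, Bhlhe41, Npas2 and Nfil3 are themselves part of the clock score, so nothing is read from their change of sign. Without 1 array, Cry1 (-0.020 to 0.31) changed sign without KO ND replicate 1 and without TG ND replicate 3, and Smad7 (-0.050 to 0.16) without TG ND replicate 1, none of them with a call. Of 106 called genes 71 kept their call in every fit without 1 array. No paired analysis was possible because the animal numbers in the titles are not shared between groups. With 3 arrays a group, changes under about 1 on the log2 scale were often missed on simulated data, and dim genes give compressed differences.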

Other observations

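The genes in the next paragraphs were singled out after their values were seen. They stand for no list, and nothing is read from them as a group. Fkbp5, a co-chaperone of the glucocorticoid receptor, read 5.56, 6.23 and 6.48 in KO and 3.52, 3.37 and 3.82 in TG, a difference of 2.52 (SE 0.36, adjusted p = 0.000467), with WT at 3.23, 3.43 and 3.35. Zbtb16, a zinc-finger repressor, was at 6.82, 6.86 and 7.37 in KO and 3.64, 4.09 and 5.21 in TG (2.70, adjusted p = 0.0200). Dusp1, a phosphatase of MAP kinases, was at 6.58, 6.89 and 6.41 in KO and 5.57, 5.72 and 5.69 in TG (0.97, adjusted p = 0.0343), and on HFD it was lower in KO (-1.10, adjusted p = 0.0162). The calls of Zbtb16 and Dusp1 on ND were lost without 4 and 5 of the 6 arrays (adjusted p up to 0.103 without TG replicate 1 and 0.162 without KO replicate 2).

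Cldn1, a claudin of tight junctions, read 6.67, 6.25 and 6.43 in KO, 8.79, 8.65 and 8.69 in TG and 8.72, 8.62 and 8.38 in WT (-2.26, SE 0.15, adjusted p = 1.35e-07), and on HFD the difference was -0.06. Cdh1, which encodes E-cadherin, was at 4.17, 4.36 and 4.38 in KO and 6.21, 6.17 and 6.39 in TG (-1.95, adjusted p = 0.00198) and differed on HFD as well (-2.49, adjusted p = 0.000225). Dsg2, a desmosomal cadherin, differed by -0.92 (adjusted p = 0.00190), and Lsr, a lipoprotein receptor also found at junctions of 3 cells, by -0.85 (adjusted p = 0.000627).

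Among the 30 measured genes nearest to Kcp in the RefSeq order of GRCm38.p6, 15 on each side, 1 differed between KO and TG on ND and 1 on HFD, in both cases Tspan33. Over all genes 4.2% differed on ND and 2.35% on HFD, and a count of 1 in 30 is near these shares. Tspan33 read 4.08, 3.20 and 3.38 in KO and 4.88, 5.11 and 5.11 in TG (-1.48, adjusted p = 0.00358), and the HFD difference was -1.34 (adjusted p = 0.00750).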
